A study of Arabidopsis thaliana with 9 samples.

Results

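The JASMONATE ZIM-DOMAIN (JAZ) genes encode the repressors of the jasmonate hormone pathway, and 10 JAZ loci are described here: JAZ1 (AT1G19180), JAZ2 (AT1G74950), JAZ3 (AT3G17860), JAZ5 (AT1G17380), JAZ6 (AT1G72450), JAZ7 (AT2G34600), JAZ8 (AT1G30135), JAZ9 (AT1G70700), JAZ10 (AT5G13220) and JAZ12 (AT5G20900). All are protein-coding genes in the RefSeq annotation. They were set by their locus identifiers, and they were chosen with earlier results of these data known. They are 10 of the 34212 genes and 29 of the 82190 transcript isoforms in the deposited table. Whole Arabidopsis thaliana seedlings of 14 days were sequenced as polyadenylated RNA in 9 libraries. There were 3 libraries of the mutant smd1b (allele smd1b-3), 3 of the mutant prp39a (allele prp39a-3, insertion line SAIL_1249A03) and 3 of wild type, all in or from accession Col-0. SmD1b is a subunit of the Sm ring shared by the spliceosome's RNA-protein particles, and PRP39a works with U1, the particle that first pairs with the start of an intron. According to its title, the study concerned both proteins in transgene silencing after transcription, and each mutant was represented by 1 allele.

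JAZ proteins hold MYC-type transcription factors inactive and recruit the corepressor TOPLESS, most of them through the adaptor NINJA. When jasmonoyl-isoleucine accumulates, as it does after wounding, the F-box receptor COI1 binds JAZ proteins through their Jas motif and they are degraded, which frees the MYC factors. The JAZ genes are themselves switched on by the MYC factors, so that the pathway refills its own repressors, and several JAZ transcripts are spliced in more than one way within the sequence that encodes the Jas motif. Work in Arabidopsis has linked the Mediator subunit MED25 and the splicing factors PRP39a and PRP40a to the splicing of such JAZ introns.

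The mutated genes were low in the mutants named for them. SMD1B was listed at 0 in 2 smd1b libraries and had 0.138 TPM (transcript abundance scaled to transcript length and to a fixed library total) in the third, against 50.3 to 53.6 TPM in wild type. PRP39A had 5.44 to 5.58 TPM in prp39a seedlings, against 48.5 to 55.1 TPM in wild type. The 10 most abundant genes took 7.17% to 10.2% of a library's TPM, and since TPM keep no depth, read numbers are unknown. All 4 leaf markers and 7 of 8 root markers were above 0 in each library, IRT1 was listed at 0 in 3 mutant libraries, and of 6 flower genes only SEP3 averaged at least 1 TPM. In whole seedlings, fewer cells of a type and less RNA per cell cannot be told apart.

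The JAZ genes fell in 2 ranges of level. JAZ12, JAZ6, JAZ1, JAZ2, JAZ9 and JAZ3 averaged between 35.0 TPM (JAZ3 in smd1b) and 109 TPM (JAZ12 in smd1b). JAZ7, JAZ10, JAZ5 and JAZ8 averaged between 0.345 TPM (JAZ8 in prp39a) and 9.11 TPM (JAZ7 in wild type). Only the upstream sequences of these lower 4 are shown, a choice made because the JAZ genes called in smd1b are among them. The other windows, including that of JAZ1, which was called in prp39a, are described without their sequence.

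The 250 bases before the annotated start of JAZ7, JAZ8, JAZ5 and JAZ10 follow, 5′ to 3′, from the RefSeq annotation of TAIR10.1, whose coordinates were not given in the deposited table. The windows are chr2:14572780-14573029 (plus strand), chr1:10596102-10596351 (plus strand), chr1:5957512-5957761 (minus strand) and chr5:4218536-4218785 (plus strand). Capitals mark the G-box CACGTG, a word that MYC2 binds, or its variant CACGTT, which reads AACGTG on the other strand.
JAZ7: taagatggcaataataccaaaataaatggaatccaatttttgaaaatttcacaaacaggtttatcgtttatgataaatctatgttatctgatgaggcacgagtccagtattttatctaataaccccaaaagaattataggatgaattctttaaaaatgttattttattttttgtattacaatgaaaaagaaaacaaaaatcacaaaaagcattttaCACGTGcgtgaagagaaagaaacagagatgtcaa
JAZ8: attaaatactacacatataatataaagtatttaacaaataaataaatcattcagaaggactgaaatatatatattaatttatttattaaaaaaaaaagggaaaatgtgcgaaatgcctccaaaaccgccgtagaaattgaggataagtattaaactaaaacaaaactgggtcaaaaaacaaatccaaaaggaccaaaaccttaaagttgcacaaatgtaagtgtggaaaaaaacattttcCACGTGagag
JAZ5: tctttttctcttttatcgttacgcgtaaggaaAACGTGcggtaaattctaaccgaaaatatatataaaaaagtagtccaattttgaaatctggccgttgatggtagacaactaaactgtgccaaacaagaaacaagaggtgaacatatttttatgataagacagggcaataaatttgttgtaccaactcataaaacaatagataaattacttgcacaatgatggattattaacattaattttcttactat
JAZ10: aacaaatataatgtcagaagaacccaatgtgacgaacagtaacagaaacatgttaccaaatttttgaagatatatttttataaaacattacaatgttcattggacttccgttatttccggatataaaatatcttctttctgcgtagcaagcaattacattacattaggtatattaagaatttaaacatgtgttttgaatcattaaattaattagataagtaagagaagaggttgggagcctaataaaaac

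Both words were searched on both strands, and as written they cannot overlap each other. The G-box was found in 4 of the 10 JAZ windows, against 1780 of 27443 windows of the same length before protein-coding genes, or 6.49%. Counted from the first base of the gene, it begins at -34 in JAZ7, at -10 in JAZ8, at -66 in JAZ2, and at -140 and -82 in JAZ3. The variant CACGTT was found in the windows of JAZ3, JAZ5, JAZ6 and JAZ12, 4 of 10, against 7.54% of all windows. JAZ1, JAZ9 and JAZ10 hold neither word within these 250 bases. A match describes the letters of the window and no binding was measured here. The 4 JAZ genes with a G-box include JAZ7 and JAZ8, whose mutant values all lay below wild type, and JAZ2 and JAZ3, which did not pass the test in either mutant against wild type.

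In smd1b seedlings, JAZ10, JAZ7 and JAZ5 were lower than in wild type and no JAZ gene was higher by the same test. Differences were tested with limma on log2(TPM + 0.5) over the 20585 genes that averaged at least 1 TPM, with Benjamini-Hochberg adjusted p under 0.05. Of the 9 JAZ genes that passed this filter, 3 fell and 0 rose, while 3.06% of all tested genes were called lower and 3.57% higher. JAZ8, at a mean of 0.683 TPM, did not pass it. The median JAZ difference was -0.23 on the log2 scale, against a median of 0.017 over all tested genes. The groups did not overlap, with smd1b lower, for 4 of the 10 JAZ genes (JAZ5, JAZ7, JAZ8 and JAZ10), against 13.3% of tested genes. They did not overlap, with smd1b higher, for JAZ12 alone, against 17.0% of tested genes.

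JAZ10, a jasmonate-induced repressor known for splice forms that escape degradation, had 3.07, 3.09 and 2.52 TPM in smd1b seedlings, against 5.35, 6.38 and 6.84 TPM in wild type. All 3 smd1b libraries lay below all 3 wild-type libraries. The smd1b mean was 46.7% of the wild-type mean, a log2 difference of -0.98 ± 0.12 (SE; limma adjusted p = 0.00372). JAZ10 stayed under the threshold in all 15 alternative fits, with a highest adjusted p of 0.0211.

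JAZ7, a short JAZ protein that can recruit TOPLESS directly, had 4.91, 4.53 and 1.94 TPM in smd1b seedlings, against 8.49, 11.0 and 7.89 TPM in wild type. The third smd1b library was the lowest, and the groups did not overlap. The difference was -1.23 ± 0.27 on the log2 scale (SE; limma adjusted p = 0.0329). It no longer passed the test without smd1b replicate 2 (adjusted p = 0.0535), wild-type replicate 1 (0.0855), wild-type replicate 2 (0.101) or wild-type replicate 3 (0.0696). It also missed the threshold with no TPM filter (0.0590) and in a fit of these 6 libraries alone (0.0527).

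JAZ5, a wound-induced JAZ gene closely related to JAZ6, had 2.01, 2.48 and 1.73 TPM in smd1b seedlings, against 2.90, 3.85 and 3.95 TPM in wild type. The smd1b values lay below the wild-type values. The difference was -0.66 ± 0.16 on the log2 scale (SE; limma adjusted p = 0.0466), close to the threshold. Leaving out prp39a replicate 3 kept the call (adjusted p = 0.0418), and leaving out any of the other 8 libraries gave adjusted p from 0.0528 to 0.164, the highest without smd1b replicate 3. The call was also lost with no TPM filter (0.0646), with size factors (0.0502) and in a fit of these 6 libraries alone (0.0543).

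The remaining JAZ genes did not pass the test between smd1b and wild type. JAZ1, an early jasmonate-induced repressor, had 67.2, 59.3 and 53.8 TPM in smd1b seedlings, against 63.4, 88.7 and 82.3 TPM in wild type, with a log2 difference of -0.37 ± 0.14 (SE; limma adjusted p = 0.151). Its groups overlapped through the first library of each genotype. JAZ12, a repressor whose stability depends on the ubiquitin ligase KEG, had 108, 110 and 109 TPM in smd1b seedlings, against 95.9, 104 and 97.8 TPM in wild type. Here smd1b was the higher group without overlap, with a log2 difference of 0.13 ± 0.061 (SE; limma adjusted p = 0.225). JAZ2, JAZ3, JAZ6 and JAZ9 had overlapping groups, with log2 differences from -0.23 (JAZ3) to 0.088 (JAZ2).

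**Figure D1:**
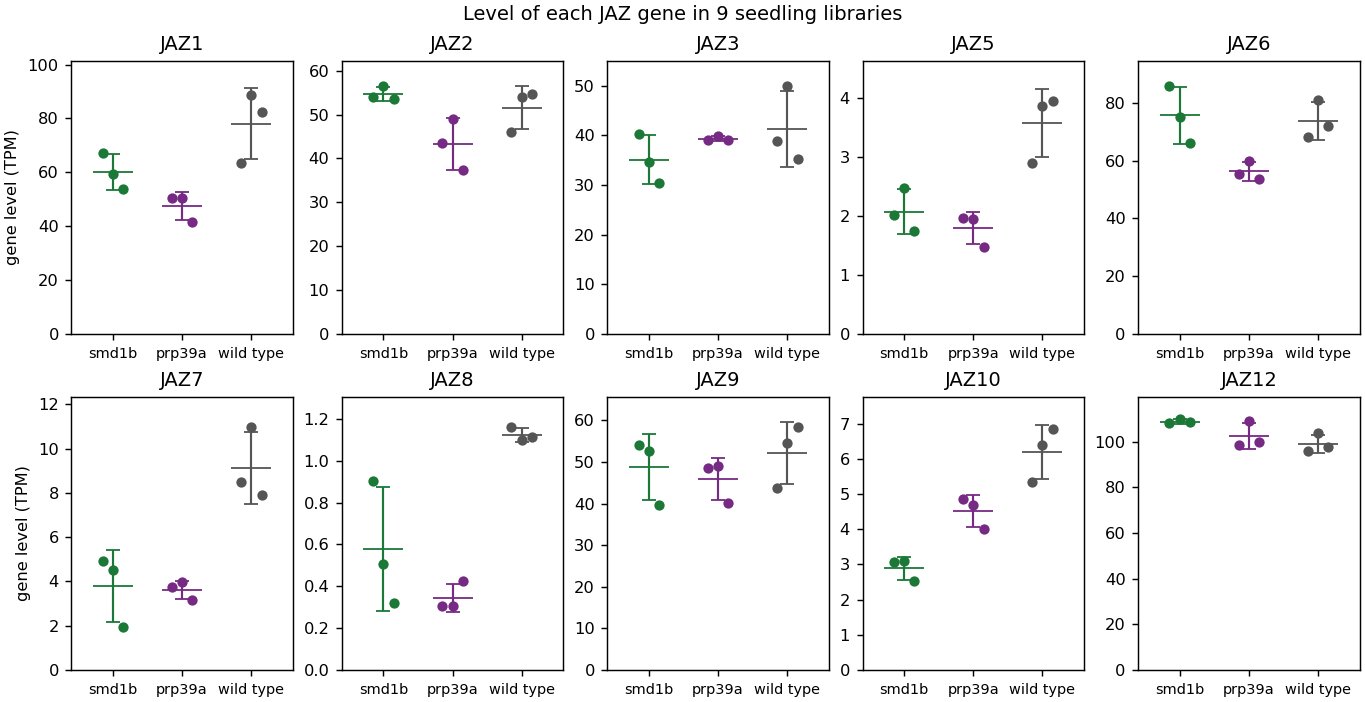
Gene level in TPM (y axis, from 0, with its own scale for each gene) of the 10 JAZ genes in smd1b, prp39a and wild-type seedlings. Points are libraries, horizontal lines means and bars SD (n = 3 each); for JAZ5, JAZ7, JAZ8 and JAZ10 the points of both mutants lie below those of wild type, and for JAZ1 and JAZ6 those of prp39a do.

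In prp39a seedlings, JAZ1, JAZ5 and JAZ7 were lower than in wild type, again with no JAZ gene called higher. These 3 of 9 tested JAZ genes compare with 2.39% of all tested genes called lower and 1.73% called higher. The median JAZ difference was -0.39 on the log2 scale, against -0.071 over all tested genes. The groups did not overlap, with prp39a lower, for 6 of the 10 JAZ genes (JAZ1, JAZ5, JAZ6, JAZ7, JAZ8 and JAZ10), against 18.6% of tested genes. The 3 wild-type libraries served both comparisons, so the 2 sets of JAZ differences share their wild-type values. Rescaling the libraries with size factors left 2 JAZ genes called lower and gave 614 calls higher and 381 lower over all genes, against 357 higher and 493 lower as deposited.

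JAZ1 had 50.5, 50.5 and 41.4 TPM in prp39a seedlings, against 63.4, 88.7 and 82.3 TPM in wild type. All prp39a libraries lay below the lowest wild-type library, the first. The prp39a mean was 60.8% of the wild-type mean, a log2 difference of -0.70 ± 0.14 (SE; limma adjusted p = 0.0280). The call was lost when any prp39a library was left out (adjusted p from 0.0572 to 0.0697), without wild-type replicate 2 (0.103) or without wild-type replicate 3 (0.0778). It was also lost with no TPM filter (0.0509) and in a fit of these 6 libraries alone (0.0576).

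JAZ7 had 3.77, 3.95 and 3.17 TPM in prp39a seedlings, against 8.49, 11.0 and 7.89 TPM in wild type. The 3 prp39a libraries were close to each other and below the wild-type range. The log2 difference was -1.21 ± 0.27 (SE; limma adjusted p = 0.0441), or 39.9% of the wild-type mean. JAZ7 lost the call when any prp39a or wild-type library was left out, with adjusted p from 0.0773 (without wild-type replicate 3) to 0.150 (without wild-type replicate 2). It also lost it with a pseudocount of 0.1 (0.0507), with no TPM filter (0.0796) and with size factors (0.0530).

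JAZ5 had 1.96, 1.95 and 1.48 TPM in prp39a seedlings, against 2.90, 3.85 and 3.95 TPM in wild type. No prp39a library reached the lowest wild-type value. The log2 difference was -0.82 ± 0.16 (SE; limma adjusted p = 0.0283), or 50.3% of the wild-type mean. The call was lost without any one prp39a library (adjusted p from 0.0581 to 0.0721), without wild-type replicate 2 (0.114) or without wild-type replicate 3 (0.0844), and in a fit of these 6 libraries alone (0.0556).

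JAZ6 and JAZ10 were below wild type in every prp39a library without passing the test. JAZ6 had 55.4, 59.9 and 53.6 TPM in prp39a seedlings, against 68.3, 81.0 and 72.1 TPM in wild type, a log2 difference of -0.39 ± 0.10 (SE; limma adjusted p = 0.0717). JAZ10 had 4.86, 4.69 and 4.01 TPM in prp39a seedlings, against 5.35, 6.38 and 6.84 TPM of wild type, a log2 difference of -0.41 ± 0.12 (SE; limma adjusted p = 0.0962). JAZ2, JAZ3, JAZ9 and JAZ12 overlapped wild type, with log2 differences from -0.25 (JAZ2) to 0.048 (JAZ12).

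JAZ8, a repressor that lacks the usual degradation signal and is stable in the presence of jasmonate, had 0.903, 0.508 and 0.320 TPM in smd1b seedlings. It had 0.307, 0.305 and 0.424 TPM in prp39a seedlings, against 1.16, 1.10 and 1.11 TPM in wild type. Both mutants lay below the narrow wild-type range, and the first smd1b library was nearest to it. In a fit without the TPM filter, the log2 difference from wild type was -0.63 ± 0.17 in smd1b (SE; limma adjusted p = 0.0894) and -0.95 ± 0.17 in prp39a (SE; limma adjusted p = 0.0392). The pseudocount of 0.5 TPM understates such differences at this level, where the means were 51.3% of wild type in smd1b and 30.7% in prp39a.

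**Figure D2:**
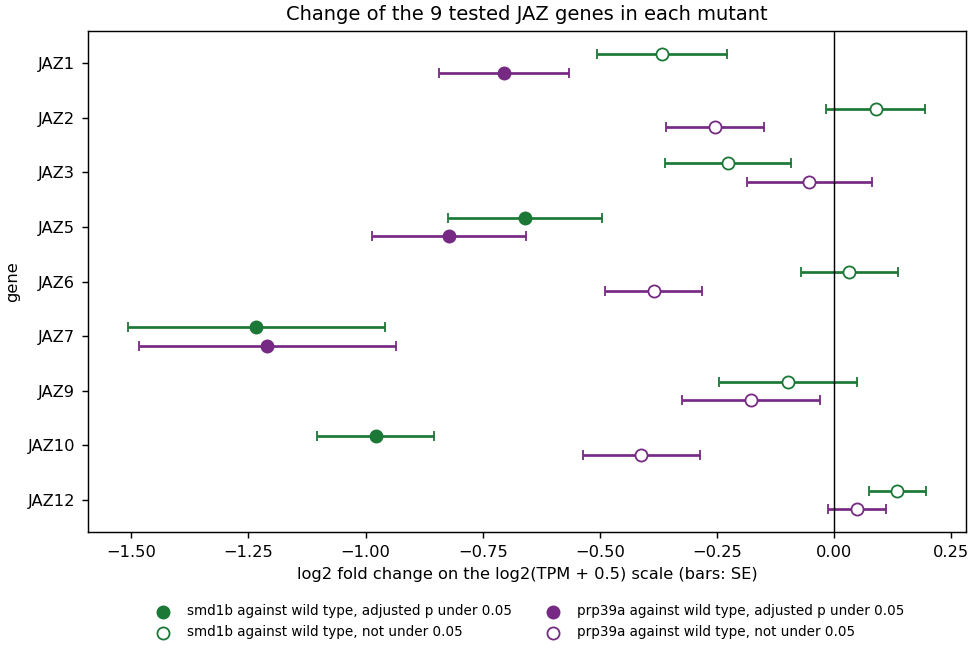
Log2 fold change on the log2(TPM + 0.5) scale (x axis) of the 9 tested JAZ genes (y axis) in smd1b and prp39a seedlings against wild type. Points are limma estimates, bars SE and filled points adjusted p under 0.05; JAZ7 has the lowest estimate in both mutants, and JAZ10 is filled in smd1b alone.

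Setting prp39a directly against smd1b asks where the mutants differed from each other. JAZ10 was higher in prp39a than in smd1b, and JAZ6 and JAZ2 were lower. Thus 1 of 9 tested JAZ genes was called higher, against 6.39% of all tested genes, and 2 were called lower, against 14.7%. The mutants did not overlap for 3 JAZ genes lower in prp39a (JAZ1, JAZ2 and JAZ6), against 27.2% of tested genes, and for 1 higher (JAZ10), against 12.5%. JAZ10 had 4.86, 4.69 and 4.01 TPM in prp39a seedlings and 3.07, 3.09 and 2.52 TPM in smd1b seedlings, without overlap. The log2 difference was 0.57 ± 0.12 (SE; limma adjusted p = 0.0146), with the prp39a mean at 156% of the smd1b mean. The call was lost without smd1b replicate 3 (adjusted p = 0.0562) or prp39a replicate 1 (0.0573). With all 9 libraries the test of the difference itself separated the mutants for JAZ10, and this depended on each of these libraries.

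JAZ6 had 55.4, 59.9 and 53.6 TPM in prp39a seedlings and 85.9, 75.2 and 66.0 TPM in smd1b seedlings, without overlap. Its log2 difference was -0.42 ± 0.10 (SE; limma adjusted p = 0.0231). JAZ2, a close relative of JAZ1, had 43.5, 49.1 and 37.3 TPM in prp39a seedlings and 54.1, 56.6 and 53.5 TPM in smd1b seedlings. The groups did not overlap, and the log2 difference was -0.34 ± 0.11 (SE; limma adjusted p = 0.0467). With size factors neither call held, at adjusted p = 0.0607 for JAZ6 and 0.180 for JAZ2, and all calls split into 2194 higher and 2027 lower, against 1316 higher and 3020 lower as deposited. JAZ6 also lost its call without smd1b replicate 1 (0.0672), smd1b replicate 2 (0.0519), prp39a replicate 1 (0.0714) or prp39a replicate 3 (0.0525). JAZ2 kept its call without prp39a replicate 2 or wild-type replicate 1 only, and the other 7 libraries gave adjusted p from 0.0605 to 0.109 when left out, as did having no TPM filter (0.0676) or fitting these 6 libraries alone (0.0653).

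JAZ1 was lower in prp39a than in smd1b without overlap, with a log2 difference of -0.34 ± 0.14 that did not pass the test (SE; limma adjusted p = 0.112). JAZ7 overlapped between the mutants, with a log2 difference of 0.024 ± 0.27 (SE; limma adjusted p = 0.961). JAZ3, known as JAI3 from the dominant jasmonate-insensitive mutant, had 39.1, 39.8 and 39.0 TPM in prp39a seedlings, 40.2, 34.6 and 30.3 TPM in smd1b seedlings and 38.8, 49.9 and 35.2 TPM in wild type. JAZ9, a close relative of JAZ3, had 48.6, 49.0 and 40.2 TPM in prp39a seedlings, 54.2, 52.6 and 39.6 TPM in smd1b seedlings and 43.8, 54.4 and 58.3 TPM in wild type. All groups of JAZ3 and JAZ9 overlapped.

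Within a genotype, the order of the JAZ levels per length was alike at its ends. JAZ12 was the highest JAZ gene in each genotype and did not overlap the next one. JAZ8 was the lowest and JAZ5 the next lowest, again without overlap. JAZ6 came after JAZ12 and before JAZ1 in smd1b and prp39a, overlapping JAZ1 in smd1b and separate from it in prp39a, while in wild type JAZ1 came before JAZ6 and overlapped it. JAZ10 lay above JAZ7 in prp39a without overlap, JAZ7 lay above JAZ10 with overlapping ranges in smd1b, and JAZ7 lay above JAZ10 without overlap in wild type. JAZ2, JAZ9 and JAZ3 lay between these, and each overlapped the JAZ gene above it in the order except JAZ9 in wild type. Summed over the 10 JAZ genes, the level was 420, 399 and 358 TPM in smd1b seedlings, 347, 368 and 320 TPM in prp39a seedlings and 374, 454 and 420 TPM in wild type.

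Across the 9 libraries the JAZ genes tended to vary together. Of the 36 pairs of the 9 tested JAZ genes, 28 had a Pearson r above 0 on the log2(TPM + 0.5) scale, with a median of 0.53. The highest r was 0.91 for JAZ1 and JAZ5, followed by 0.89 for JAZ5 and JAZ7. JAZ12 ran against JAZ10 at -0.67. The libraries share genotypes and the TPM scale, so these values describe the 9 libraries. The 5 other genes most like the mean standardised JAZ profile were AT1G76070 (r = 0.945), AT3G55430 (0.942), CXE17 (0.940), AT2G27260 (0.928) and DFL2 (0.905), each over 9 libraries.

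Because both mutated genes encode splicing proteins, the mix of JAZ isoforms was compared as well. Of the 29 JAZ isoforms, 7 made up over 95% of their gene's TPM on average and 14 under 5%, so that the leading isoform held at least 57.7% (JAZ10), and JAZ8 has 1 isoform. Isoforms with a mean share of 0.05 to 0.95 were tested as the log2 ratio to the other isoforms of the gene, which left 8 isoforms of JAZ5, JAZ7 and JAZ10. None of the 8 passed limma's test in smd1b or prp39a against wild type, or between the mutants, while 2.17%, 10.6% and 13.5% of all 21990 tested isoforms did in these 3 comparisons. Unadjusted p-values under 0.05 numbered 3 in smd1b, 1 in prp39a and 0 between the mutants. JAZ7 has 2 isoforms, P1 and ID1, whose ratios mirror each other, and both count among the 3 in smd1b. The smallest adjusted p was 0.118, for JAZ7 isoform P1 in smd1b. Small shifts in share may go undetected at levels of a few TPM, and the detection limit was not tested.

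JAZ7 isoform P1 held 91.8%, 90.4% and 96.2% of the gene's TPM in smd1b seedlings, 97.4%, 90.7% and 96.1% in prp39a seedlings and 92.4%, 96.0% and 92.8% in wild type. These shares overlapped in all genotypes. Its log2 ratio differed from wild type by -0.83 ± 0.25 in smd1b (SE; limma adjusted p = 0.118) and by -0.58 ± 0.25 in prp39a (SE; limma adjusted p = 0.189). With a pseudocount of 0.1 these were -0.51 and -0.041, since 0.5 TPM weighs more on a ratio when the gene's own level is lower. JAZ5 isoform P1 held 76.6% to 94.3% in smd1b, 82.3% to 97.7% in prp39a and 83.1% to 92.0% in wild type.

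JAZ10 had the most even mix. Its isoform P1 held 66.6%, 65.3% and 58.6% of the gene's TPM in smd1b seedlings, 51.9%, 53.9% and 57.4% in prp39a seedlings and 61.2%, 62.8% and 49.6% in wild type. The wild-type libraries spanned most of the range of both mutants. Isoform P4, the JAZ10 isoform with the smallest p in smd1b, held 7.72%, 8.25% and 4.93% in smd1b, 4.68%, 8.92% and 5.52% in prp39a and 3.63%, 1.78% and 11.6% in wild type, and did not pass the test (limma adjusted p = 0.194 in smd1b and 0.520 in prp39a). Isoform P3 ranged from 15.8% to 29.1% in smd1b, from 24.4% to 31.5% in prp39a and from 22.4% to 29.4% in wild type. With the wider share window of 0.01 to 0.99, isoform P6 of JAZ10 was called higher in smd1b than in wild type (limma adjusted p = 0.0310) and lower in prp39a than in smd1b (0.0388). Its level was at most 0.186 TPM in any smd1b library, 0.0805 TPM in prp39a and 0.102 TPM in wild type, so the call rests on very low values. The pseudocount of 0.5 TPM also weighs more on such ratios in smd1b, where JAZ10 is lower. In the same fit isoform P5 differed by 0.77 ± 0.22 between smd1b and wild type (SE; limma adjusted p = 0.112). Yet its mean share was 0.017% in smd1b and 1.26% in wild type. The ratios of minor JAZ10 isoforms therefore do not by themselves show a change of share. P3, P5 and P6, and the JAZ1 and JAZ6 isoforms below, were chosen after their values were seen.

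**Figure D3:**
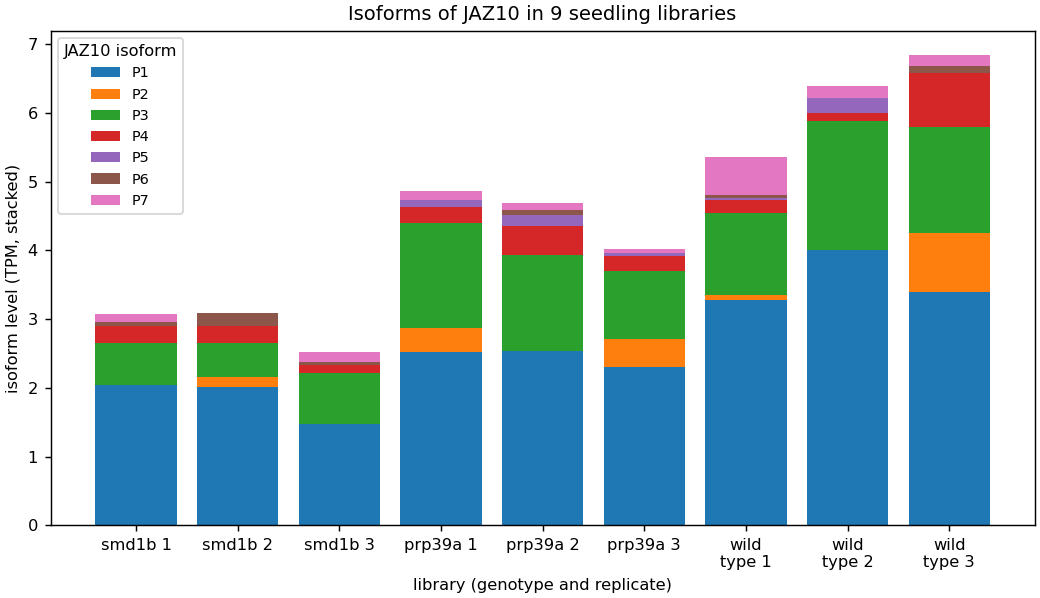
Level of the 7 JAZ10 isoforms in TPM (y axis, stacked from 0) in each of the 9 libraries (x axis, genotype and replicate). P1 and P3 make up most of each bar, and the bars of the 3 smd1b libraries are the shortest.

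Of the 29 isoform names, 3 match transcripts of the RefSeq annotation, and the structure of the rest is not given in the sources used here. One of the matched is AT1G19180.2, a JAZ1 transcript that keeps the intron at chr1:6622475-6622672 (plus strand), whose 5′ splice site reads as follows, with 3 exon bases, the intron's first bases GT in capitals and 4 more intron bases.
JAZ1: atgGTaaga
This isoform held 2.56%, 4.74% and 3.12% of JAZ1 TPM in smd1b seedlings, 1.88%, 1.33% and 1.37% in prp39a seedlings and 1.53%, 1.91% and 2.39% in wild type. The 3 smd1b shares were above all others, and the prp39a and wild-type shares overlapped. In the fit with the wider share window its log2 ratio differed by 0.73 ± 0.25 between smd1b and wild type, which did not pass the test (SE; limma adjusted p = 0.186). Between prp39a and wild type the difference was -0.0088 ± 0.25 (SE; limma adjusted p = 0.992).

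In the annotation of JAZ10, an intron at chr5:4219993-4220462 (plus strand) is removed in some transcripts and kept in 4 of 7, and 1 transcript uses a second 5′ splice site at chr5:4220046-4220462. These are the alternative JAZ10 forms that the annotation holds near the gene's end. Their 5′ splice sites follow with GT in capitals, and use of either site was not measured here.
JAZ10, first site: gagGTaatg
JAZ10, second site: aagGTtttt
The deposited JAZ10 isoforms carry names from P1 to P7 that were not matched to these forms, so no level is given for either site. For JAZ6, the minor isoform s1 held 5.12% to 6.07% of the TPM in smd1b seedlings, 2.83% to 4.29% in prp39a seedlings and 3.34% to 5.01% in wild type. All JAZ6 s1 shares of smd1b lay above those of the others, and with the wider share window the log2 ratio differed by 0.36 ± 0.23 from wild type (SE; limma adjusted p = 0.473).

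The genes that act around the JAZ proteins were read from lists of loci. None of the 11 tested genes of perception and MYC factors passed the test in either mutant against wild type. Over all tested genes 3.06% were called lower and 3.57% higher in smd1b, and 2.39% and 1.73% in prp39a. The receptor COI1 had 21.0 ± 0.15 TPM in smd1b, 19.7 ± 0.20 TPM in prp39a and 20.8 ± 1.40 TPM in wild type (SD, n = 3 each). MYC2, the main partner of the JAZ proteins, had 21.2 ± 1.11 TPM in smd1b, 20.3 ± 2.56 TPM in prp39a and 24.8 ± 4.89 TPM in wild type. The adaptor NINJA had 45.1 ± 0.78 TPM in smd1b, 40.8 ± 1.65 TPM in prp39a and 42.0 ± 2.52 TPM in wild type. The log2 difference from wild type was below 0 for 3 of the 11 in smd1b and all 11 in prp39a. The list's median was 0.046 and -0.099, against 0.017 and -0.071 over all tested genes. Only MYC4 lay below wild type without overlap in prp39a, at -0.38 (limma adjusted p = 0.0684), against 18.6% of tested genes. Between the mutants 1 of the 11, MYC4, was lower in prp39a, against 14.7% of all tested genes, by a log2 difference of -0.42 (limma adjusted p = 0.0191). Leaving out prp39a replicate 1 or 2, or smd1b replicate 1 or 3, ended this call, at adjusted p from 0.0547 to 0.0681.

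Different jasmonate synthesis genes were called in each mutant against wild type, those in smd1b higher and those in prp39a lower. Of 13 tested, 3 rose and 0 fell in smd1b against wild type, with 3.57% of all tested genes called higher. In prp39a against wild type 0 rose and 2 fell, with 2.39% called lower. The median of the list was 0.13 in smd1b and -0.18 in prp39a, against 0.017 and -0.071 over all tested genes. The lipoxygenase gene LOX2 had 405, 526 and 351 TPM in smd1b seedlings, against 218, 239 and 212 TPM in wild type, a log2 difference of 0.92 (limma adjusted p = 0.0176). It lost the call without wild-type replicate 1 (0.0604) or replicate 3 (0.0604). The allene oxide cyclase genes AOC2 (1.05; limma adjusted p = 0.00385) and AOC1 (0.73; limma adjusted p = 0.00396) were the others, and these are similar neighbouring copies whose shared reads make the split between them uncertain. In prp39a, LOX4 fell by 0.81 on the log2 scale (limma adjusted p = 0.00981) and AOC3 by 0.64 (limma adjusted p = 0.0346). LOX4 passed in all 15 alternatives and AOC3 in 6. In prp39a, LOX2 (-0.16; limma adjusted p = 0.59), AOC2 (-0.20; 0.404) and AOC1 (0.083; 0.626) were not called and overlapped wild type. In smd1b, LOX4 (0.22; limma adjusted p = 0.311) and AOC3 (-0.47; 0.0739) were not called.

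Among 8 tested turnover genes, the median log2 difference was -0.19 in smd1b and -0.046 in prp39a, against 0.017 and -0.071 over all tested genes. The 1 gene called was CYP94C1, lower in each mutant, where 3.06% and 2.39% of all tested genes were called lower. CYP94C1 oxidises jasmonoyl-isoleucine and is induced together with JAZ genes. It had 2.43, 1.86 and 1.65 TPM in smd1b seedlings and 1.59, 1.99 and 1.94 TPM in prp39a seedlings, against 3.75, 4.99 and 3.33 TPM in wild type. Both mutants lay below wild type, as for JAZ5, JAZ7 and JAZ10. The log2 difference was -0.86 ± 0.17 in smd1b (SE; limma adjusted p = 0.0233) and -0.94 ± 0.17 in prp39a (SE; limma adjusted p = 0.0228). In smd1b the call was lost without smd1b replicates 2 or 3 or wild-type replicates 1 or 2 (adjusted p from 0.0640 to 0.0950), and in prp39a without prp39a replicate 1 or wild-type replicates 1 or 2 (0.0630 to 0.0851).

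Of 7 tested jasmonate response genes, TAT3, a tyrosine aminotransferase gene, was called lower in smd1b at -0.75 (limma adjusted p = 0.0401), against 3.06% of all tested genes. None was called in prp39a. An unadjusted limma p under 0.05 was found for 3 in each mutant, without an all-gene share to set beside it. In smd1b these were TAT3 and the ethylene response factor gene ERF1, both lower, and the transcription factor gene ORA59, higher. The ORA59 difference was 0.58 in smd1b (limma adjusted p = 0.0508) and -0.60 in prp39a (limma adjusted p = 0.0578). In prp39a ORA59, ERF1 and the jasmonate repressor gene JAV1 made up the 3, all lower. The list's median was -0.29 in smd1b and -0.18 in prp39a, against 0.017 and -0.071 over all tested genes. TAT3 passed in 5 of 15 alternatives and lost the call in 7 of the 9 fits that left out a library, with adjusted p up to 0.132 without smd1b replicate 3. The storage protein gene VSP2, a common jasmonate reporter, ranged from 122 to 307 TPM in smd1b, from 140 to 538 TPM in prp39a and from 155 to 288 TPM in wild type, with all groups overlapping.

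The other members of the TIFY family, to which JAZ proteins belong, were mostly not called. Over all tested genes 3.06% were called lower in smd1b and 2.39% in prp39a. Of the 8 other members tested, only TIFY8 was called, and it was lower in each mutant. It had 33.3, 33.6 and 32.1 TPM in smd1b seedlings and 27.1, 25.0 and 25.7 TPM in prp39a seedlings, against 46.7, 42.8 and 42.9 TPM in wild type. The 3 genotypes did not overlap. TIFY8, which has the TIFY domain but no Jas motif, differed by -0.41 ± 0.062 in smd1b (SE; limma adjusted p = 0.00748) and by -0.76 ± 0.062 in prp39a (SE; limma adjusted p = 0.000755), and it passed in all alternatives. JAZ4 and JAZ11, which are JAZ genes outside the 10 chosen, were not called in either mutant, with log2 differences of 0.32 and -0.0059 in smd1b and -0.12 and 0.087 in prp39a. JAZ13 was under 0.270 TPM in each library and was not tested.

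Between prp39a and smd1b, jasmonate genes were called in both directions. Over all genes the calls were 1316 higher and 3020 lower in prp39a as deposited, and 2194 higher and 2027 lower with size factors. Of the 13 synthesis genes 5 were lower in prp39a and 0 higher, against 14.7% of all tested genes called lower and 6.39% higher. The 3 with the smallest adjusted p were AOC2 at -1.25 (limma adjusted p = 0.000837), LOX4 at -1.03 (0.00105) and AOC1 at -0.65 (0.00330), and LOX2 had a difference of -1.08 (0.00422). ORA59, a transcription factor gene that joins the jasmonate and ethylene pathways, had 8.82, 8.48 and 8.86 TPM in prp39a seedlings and 24.7, 15.5 and 22.4 TPM in smd1b seedlings, without overlap. Its difference of -1.18 (limma adjusted p = 0.00158) and that of the jasmonate repressor gene JAV1, at -0.54 (0.00784), passed in all 15 alternatives. TAT3 was the 1 response gene called higher, at 0.62 (0.0362), and of the turnover genes the sulfotransferase gene ST2A was called higher at 0.93 (0.0308) and the amidohydrolase gene IAR3 lower at -0.26 (0.0370). TAT3 held in 7 alternatives, ST2A in 9 and IAR3 in 6. TIFY8 was lower in prp39a than in smd1b by 0.34 on the log2 scale, and 4 of 12 touch and early stress genes were lower, with 0 higher, among them CML38, TCH2 and WRKY33.

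A list of 12 genes that respond within minutes to touch and stress was set beside the JAZ genes. Like the JAZ genes, it was chosen with earlier results of these data known. In smd1b 4 of 12 fell and 0 rose, against 3.06% of all tested genes called lower, and the median log2 difference was -0.56, against 0.017 over all tested genes. In prp39a 6 of 12 fell and 0 rose, against 2.39% called lower, with a median of -0.77 against -0.071. The log2 difference was below 0 for 10 of the 12 genes in smd1b and for all 12 in prp39a. The summed level of the list was 675 to 831 TPM in smd1b and 474 to 655 TPM in prp39a, against 889 to 1192 TPM in wild type. CML38, a touch-induced calmodulin-like gene, had 31.5, 23.3 and 26.9 TPM in smd1b seedlings and 15.5, 10.7 and 12.5 TPM in prp39a seedlings, against 40.9, 54.1 and 38.1 TPM in wild type. Its log2 difference in prp39a was -1.74 (limma adjusted p = 0.00186). The transcription factor gene WRKY40 had 11.4, 10.8 and 12.4 TPM in smd1b seedlings and 11.2, 8.90 and 8.46 TPM in prp39a seedlings, against 15.5, 26.4 and 26.3 TPM in wild type. For WRKY40 as for JAZ1, JAZ5 and JAZ10, wild-type replicate 1 was the lowest wild-type library. For CML38, TCH4 and JAZ7 the lowest was wild-type replicate 3, and JAZ8 was highest in wild-type replicate 1. WRKY40 differed by -0.91 in smd1b (limma adjusted p = 0.0278) and by -1.18 in prp39a (limma adjusted p = 0.0148). In smd1b the ethylene response factor gene ERF6 and the cell wall enzyme gene TCH4 also fell, by 0.91 and 1.31 on the log2 scale, as did the calmodulin-like gene TCH2 in prp39a, by 0.86. CML38 and TCH2 in prp39a passed in all 15 alternatives and WRKY40 in 14, missing without wild-type replicate 2 (adjusted p = 0.0633). In smd1b ERF6 passed in 11, TCH4 in 9 and WRKY40 in 8. Leaving out smd1b replicate 3, wild-type replicate 2 or wild-type replicate 3 ended each of these 3 smd1b calls, and so did smd1b replicate 2 for ERF6, smd1b replicate 1 or wild-type replicate 1 for TCH4, and smd1b replicate 1 or 2 for WRKY40. Their adjusted p when a call was lost this way lay between 0.0576 (ERF6) and 0.131 (TCH4). No gene of this list was listed at 0, and the part of these genes in the JAZ differences was not tested.

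**Figure D4:**
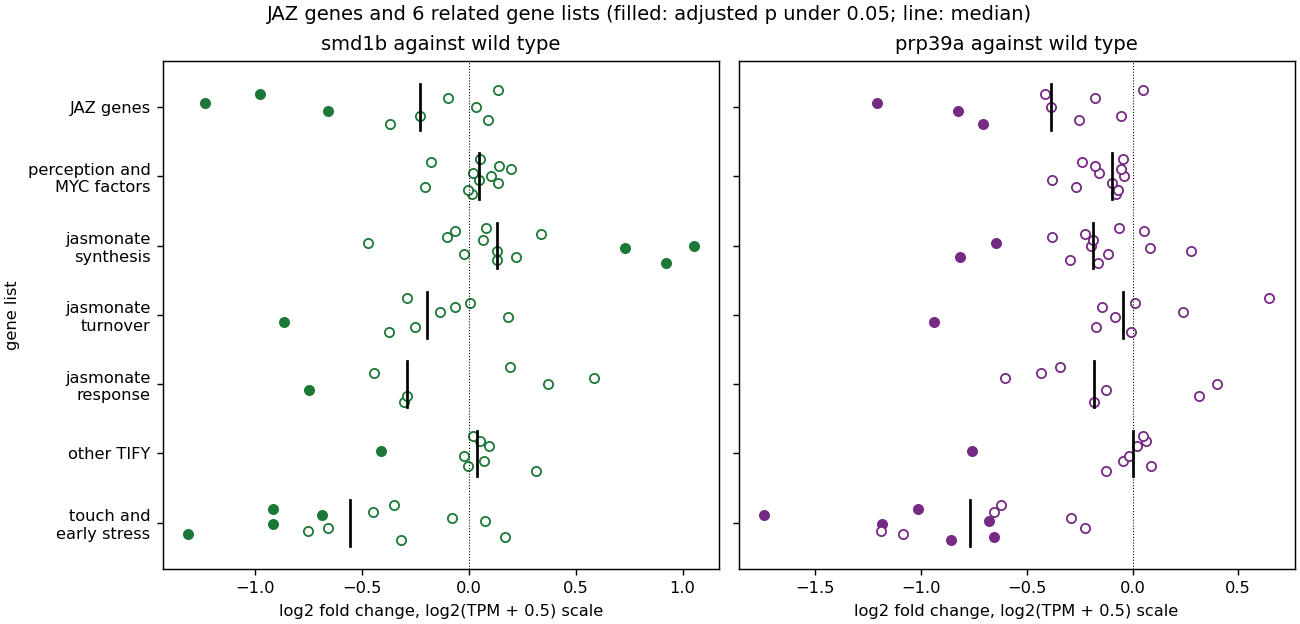
Log2 fold change on the log2(TPM + 0.5) scale (x axis) of each tested JAZ gene and of the genes in 6 lists (y axis), for smd1b (left) and prp39a (right) against wild type. Each point is a gene, filled where the limma adjusted p is under 0.05, and the line is the list's median, which is -0.23 and -0.39 for the JAZ genes and -0.56 and -0.77 for touch and early stress genes.

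Organ markers were set beside the JAZ values in the same way. The summed root list was 2640 to 3395 TPM in smd1b and 1904 to 2434 TPM in prp39a, against 2563 to 3312 TPM in wild type, most of it from the endoplasmic reticulum body enzyme gene PYK10. The root gene CASP1 varied widely within genotypes, from 26.3 to 49.7 TPM in smd1b, 27.9 to 81.1 TPM in prp39a and 34.9 to 80.7 TPM in wild type. Of 5 tested root genes, SHR was called lower in smd1b at -0.47 (limma adjusted p = 0.0381), against 3.06% of all tested genes. None was called in prp39a, where 2 had an unadjusted limma p under 0.05, without an all-gene share to set beside it. SHR lost the call without smd1b replicates 2 or 3 or any wild-type library, with adjusted p from 0.0603 to 0.138. The 4 leaf photosynthesis genes, summing to 14640 to 16330 TPM in smd1b and 15190 to 18720 TPM in prp39a against 13820 to 17600 TPM in wild type, gave no call in either mutant. Between the mutants, 14.7% of all tested genes were called lower in prp39a and 6.39% higher. In this comparison PYK10 was lower in prp39a at -0.51 (limma adjusted p = 0.0275) and the antenna protein genes CAB3 and LHCB2.1 were higher at 0.48 and 0.41. Each of these held in 9 of 15 alternatives. The part of organ makeup in the JAZ differences was not tested.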

How the data were processed

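RNA of 9 seedling libraries was analysed, 3 each of smd1b, prp39a and wild type, which the labels call independent biological replicates. The authors deposited TPM, 1 value per isoform and library, in a table whose column names carry the name kallisto. No version and no transcript annotation is given in the sources used here. The submitters' processing notes name TAIR10, Trimmomatic, TopHat2, featureCounts and DESeq2, without roles. TPM keep no depth, so no count test or counting interval is given. Of 15 columns, 9 matched the samples by name and 6 were not used.

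Isoform TPM were summed per locus. Genes averaging 1 TPM or more were fitted as log2(TPM + 0.5) with limma 3.58.1 in R 4.3.3 (lmFit, eBayes with a trend) on all 9 libraries, two-sided, with Benjamini-Hochberg adjustment over all tested genes at 0.05. Isoforms were fitted as log2 of (isoform + 0.5) over (other isoforms + 0.5), for mean shares of 0.05 to 0.95. Estimates of similar isoforms or gene copies share reads and are uncertain. Both fits were tested on simulated data, with 200 features changed.

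All 10 JAZ genes are named, with the leading isoform of each and the isoform with the smallest p in each mutant, up to 3 called genes per list and comparison, MYC2, COI1 and NINJA, and the 5 genes most like the mean JAZ profile. Other list genes given with values (VSP2, IRT1, CASP1, LOX2 between the mutants, JAZ4, JAZ11 and JAZ13) were chosen after their values were seen. So were LOX2, AOC1 and AOC2 in prp39a and LOX4 and AOC3 in smd1b. MYC4, ORA59, ERF1 and JAV1 against wild type were also chosen this way. The JAZ genes and the lists were chosen with earlier results of these data known. Promoter windows and splice sites were read from TAIR10.1 with the RefSeq annotation. Alternatives were pseudocounts of 0.1 and 1, no TPM filter, median-of-ratios size factors, the 6 libraries of a comparison alone, a replicate block, a share window of 0.01 to 0.99 and leaving out each library.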

Additional observations from a re-analysis of the deposited data

How the results depend on the processing

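JAZ10 in smd1b against wild type passed in all 15 alternatives, and no other JAZ call did. The count of JAZ genes called in smd1b against wild type was 3 as reported, 1 with no TPM filter, 1 in the fit of 6 libraries and 1 to 3 when a library was left out. In prp39a against wild type it was 3 as reported, 1 in the fit of 6 libraries, 1 with the replicate block and 0 to 3 when a library was left out, with 0 without any one prp39a library or without wild-type replicate 2 or 3. Between prp39a and smd1b it was 3 as reported, 1 with size factors and 0 to 3 when a library was left out, with 0 without prp39a replicate 1. JAZ isoform calls were 0 as reported and whenever a library was left out, and 1 with the share window of 0.01 to 0.99 in smd1b against wild type and between the mutants. The cause was not tested.

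Same-numbered libraries of 2 genotypes deviated from their group means with correlations from -0.401 to 0.287, and differently numbered ones from -0.443 to 0.466. With 3 libraries per genotype these values cannot show whether the numbers pair the samples. With the replicate block the JAZ genes called were 2 in smd1b against wild type, 1 in prp39a against wild type and 2 between the mutants. The calls not made with the block were JAZ5 in smd1b (limma adjusted p = 0.0704), JAZ1 (0.0610) and JAZ5 (0.0593) in prp39a, and JAZ2 between the mutants (0.0591).

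Differences near 0 changed sign. With size factors they were 0.019 for JAZ3 and 0.032 for NINJA in prp39a against wild type, 0.012 for JAZ9, 0.0044 for JAZ12 and 0.027 for MYC2 between prp39a and smd1b, and -0.0036 for COI1 in smd1b against wild type. With a pseudocount of 0.1 the JAZ5 isoform P1 gave 0.083 in prp39a against wild type. When a library was left out, the smd1b difference from wild type ranged from -0.063 to 0.13 for JAZ6, from -0.22 to 0.043 for JAZ9, from -0.036 to 0.059 for COI1 and from -0.0084 to 0.33 for JAZ10 isoform P1. The prp39a difference from wild type ranged from -0.16 to 0.090 for JAZ3 and from -0.065 to 0.0090 for NINJA. The prp39a difference from smd1b ranged from -0.34 to 0.23 for JAZ7, from -0.22 to 0.014 for JAZ9 and from -0.16 to 0.0054 for MYC2.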
